A study of Mus musculus with 12 samples.

Results

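Tff3, Mmd2, Cyp17a1 and Dmbt1 are 4 genes whose liver signal varied widely between mice of the same group. They were chosen by their values on these same arrays, where their log2 signals had seemed to be high together in part of the offspring of UCP1-KO dams. Each was measured by 1 probe set, so the 4 genes are 4 of the 22206 probe sets tested and 4 of the 19505 gene symbols on the array. Their levels, differences and correlations are therefore given as a description, with no test. Dmbt1 did not bear out the idea of a shared induction: it was high on 1 of the 3 arrays on which the other 3 genes were high.

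Total liver RNA of 12 adult male C57BL/6J mice, aged 4 to 5 months, was hybridised to 1 array per mouse. Arrays 1 to 6 hold offspring of WT dams and arrays 7 to 12 offspring of UCP1-KO dams, which lack uncoupling protein 1, the protein that lets brown fat release energy as heat. Sires were heterozygous in both crosses and all 12 offspring are labelled HET, so the groups differ by the mother and by which parent passed on the altered allele, and these cannot be told apart. All mice were kept at 23 °C on standard chow, and the series is about maternal brown fat and the glucose tolerance of male offspring. The labels name no litter, so some mice may be littermates, and the p-values below measure only the spread between these mice.

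Trefoil factor 3, the product of Tff3, is a small secreted peptide that goblet cells release with mucins to protect and repair epithelia. Mmd2 encodes a membrane protein of the progestin and adipoQ receptor family. Cyp17a1 encodes the steroid hydroxylase and lyase that leads from progestins to androgens, an enzyme known best from gonads and also present in mouse liver. Dmbt1 encodes a large secreted glycoprotein of mucosa and gland ducts, built of scavenger receptor cysteine-rich domains.

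Of the 4 genes, Mmd2 had an entry in the RefSeq promoter table (build GRCm38.p6). The 250 bases before its start site, chr5:142608753-142609002 on the minus strand, are shown because Mmd2 is 1 of the 3 genes that were high on the same arrays, and the only 1 of them with an entry. Capitals mark the single match among 9 short motifs searched on both strands.

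Mmd2: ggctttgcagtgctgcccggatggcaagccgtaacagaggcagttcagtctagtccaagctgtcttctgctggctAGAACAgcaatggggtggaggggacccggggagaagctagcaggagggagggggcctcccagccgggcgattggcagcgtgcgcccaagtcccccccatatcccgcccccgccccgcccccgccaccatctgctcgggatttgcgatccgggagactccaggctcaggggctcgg

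The match, AGAACA, is the core of a glucocorticoid receptor site and began 175 bases before the start. It is a common word, held by 16.1% of the 32851 promoter windows of that length. The window was rich in G and C, at 67.2% against a median of 52.4% over all windows. The motifs with no match in this window were TATAAA (core promoter box), TGTTTAC (FOXA), CAAAGTCCA (HNF4A), TTCNNNGAA (STAT), TGACGTCA (CRE), AGGTCA (nuclear receptors such as PPAR), CACGTG (E-box) and TTATGTAA (D-box). These were held by 12.4%, 3.17%, 0.384%, 7.02%, 1.55%, 14.02%, 6.02% and 0.819% of all windows.

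The arrays were alike as a whole, with medians of 6.19 to 6.28 (log2) over the tested probe sets. Pearson's r between arrays was 0.985 to 0.992 across probe sets, which are not independent. As a mark of background, the median of 5222 negative control probe sets was 6.14 to 6.62 on WT-dam arrays and 5.96 to 6.36 on UCP1-KO-dam arrays. A signal under this median is read here as not well above background. Ucp1 lay under it in both groups, at means of 4.27 and 4.10, and cannot check the labels because all offspring share a genotype. The tissue label was borne out by the hepatocyte markers, of which 11 of 11 lay above the negative control median on every array, with albumin (Alb) at 19.59 ± 0.17 and 19.69 ± 0.02 (SD, n = 6 each).

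Tff3 was not well above background in 9 livers and bright in 3. On the WT-dam arrays its log2 signal ran from 3.87 to 5.77 with a median of 4.40, and all 6 values lay under the negative control median of their array. On the UCP1-KO-dam arrays it read 4.62 on array 7, 10.96 on array 8, 4.49 on array 9, 10.43 on array 10, 12.23 on array 11 and 4.89 on array 12. The signals of arrays 8, 10 and 11 thus stood far above every other array, while arrays 7, 9 and 12 lay within the WT-dam range. On arrays 8, 10 and 11 it was 26.2-fold, 16.7-fold and 67.5-fold over the negative control median of the same array.

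The group means of Tff3 were 4.53 ± 0.64 for WT-dam arrays and 7.94 ± 3.63 for UCP1-KO-dam arrays (SD, n = 6 each). The log2 difference, UCP1-KO-dam minus WT-dam, was 3.40 with a 95% interval of 1.02 to 5.79 from the limma fit. Because the WT-dam signal was not well above background, this fitted difference is no measure of the fold change of the transcript. The limma intervals of the 4 genes take both groups to have the same spread, unlike the SDs of 0.64 and 3.63. They are no test, as the genes were chosen by their values on these arrays. With each WT-dam array set to its negative control median and the UCP1-KO-dam arrays left as read, the UCP1-KO-dam mean was 2.93-fold higher. This is no strict bound, as UCP1-KO-dam arrays 7, 9 and 12 also lay under their negative control medians, and it does not cover the spread between mice. The mean describes no single mouse of that group, since its 6 values were either at background or at 10.43 and above. Of the 10313 probe sets that lay under the negative control median on all 6 WT-dam arrays, Tff3 was the only 1 that exceeded this median by over 4 log2 on any UCP1-KO-dam array, and it did so on 3. As Tff3 was chosen by its values on these same arrays, this restates the choice and supports nothing further. The count of 3 also depends on the limit, since Tff3 exceeded the median by 4.06 log2 on array 10.

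Mmd2 was high on the same 3 arrays. Its WT-dam signals ran from 4.55 to 6.33 with a median of 5.70, and 1 of the 6, on array 2, lay above the negative control median. The UCP1-KO-dam arrays 7 to 12 read, in order, 5.32, 8.80, 5.01, 9.61, 11.52 and 4.31. Arrays 8, 10 and 11 lay above every WT-dam value, arrays 7 and 9 within the WT-dam range, and array 12 below it. The means were 5.56 ± 0.62 and 7.43 ± 2.94 (SD, n = 6 each), a log2 difference of 1.87 with a 95% interval of -0.08 to 3.82. As 5 of the 6 WT-dam signals were not well above background, this difference too is fitted against background-level values. With those 5 arrays set to their negative control median and the UCP1-KO-dam arrays left as read, the UCP1-KO-dam mean was 2.01-fold higher. This is no strict bound, as UCP1-KO-dam arrays 7, 9 and 12 also lay under their negative control medians. It does not cover the spread between mice, with SDs of 0.62 and 2.94. Without UCP1-KO-dam array 11 the fitted difference was 1.05.

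Cyp17a1 was well expressed in most livers and highest on these 3 arrays. On WT-dam arrays it ran from 6.41 to 9.80 with a median of 9.35, and array 6, the lowest, was level with its negative controls. On UCP1-KO-dam arrays 7 to 12 it read 8.33, 11.32, 8.29, 11.26, 15.09 and 7.88. Arrays 8, 10 and 11 exceeded all WT-dam arrays, as for Mmd2, and arrays 7, 9 and 12 lay inside the WT-dam range. Array 11, at 15.09, had the highest signal by a wide margin. The means were 8.90 ± 1.29 and 10.36 ± 2.78 (SD, n = 6 each), a log2 difference of 1.46 with a 95% interval of -0.53 to 3.45. Leaving out UCP1-KO-dam array 11 gave 0.51, and leaving out WT-dam array 6 gave 0.96.

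Dmbt1 departed from the other 3 genes. Its WT-dam signals ran from 4.78 on array 1 to 8.18 on array 2, with a median of 6.95, and 5 of 6 lay above the negative control median. On UCP1-KO-dam arrays 7 to 12 it read 5.92, 6.28, 4.04, 7.16, 11.96 and 8.57. Array 11 was high, as for the other genes, but arrays 8 and 10 lay within the WT-dam range. Array 12, low for Mmd2 and Cyp17a1, held the next highest value of Dmbt1 in the group. The means were 6.84 ± 1.12 and 7.32 ± 2.72 (SD, n = 6 each), a log2 difference of 0.48 with a 95% interval of -1.43 to 2.38. The sign rested on array 11, without which the difference was -0.45. Leaving out another array gave 0.06 (array 1), 0.74 (array 2), 0.76 (array 7), 1.13 (array 9) and 0.23 (array 12).

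**Figure D1:**
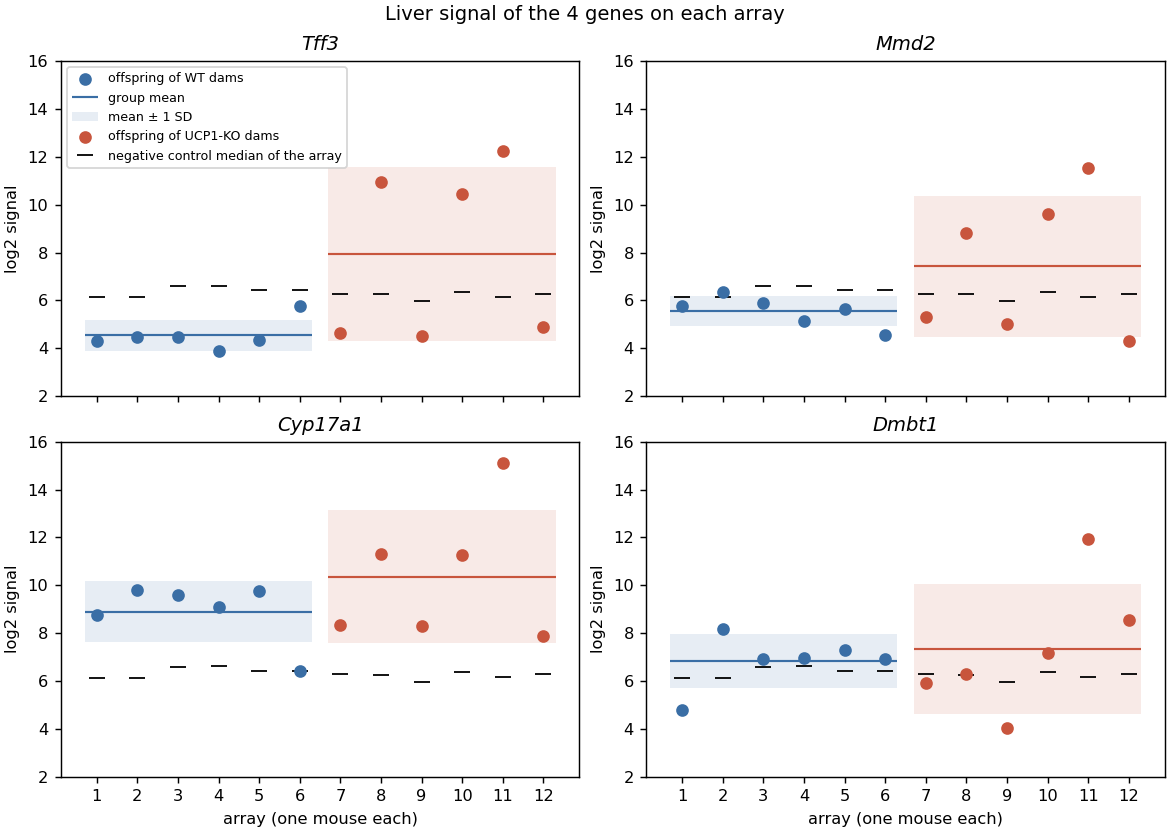
Log2 signal of Tff3, Mmd2, Cyp17a1 and Dmbt1 (vertical axis) on each of the 12 arrays (horizontal axis, 1 mouse each), with group means as lines, ± 1 SD as shading and the negative control median of each array as a black dash. Tff3, Mmd2 and Cyp17a1 lie above all WT-dam arrays on arrays 8, 10 and 11, whereas Dmbt1 is high on array 11 and lies at 6.28 and 7.16 on arrays 8 and 10.

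Few transcripts varied as much between these livers. Within the UCP1-KO-dam arrays the SDs of Tff3, Mmd2, Cyp17a1 and Dmbt1 were the highest, in this order from place 1 to place 4 of 22206, where the median SD was 0.27. Their ranges over all 12 arrays, 8.35, 7.21, 8.68 and 7.92 log2, took places 2, 5, 1 and 3, against a median range of 0.96. Within the WT-dam arrays the order was different: Cyp17a1 took place 26 and Dmbt1 place 40 by SD, and Tff3 and Mmd2, both near background there, took places 326 and 386. These places describe how the genes came to be chosen and support nothing further.

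Within the UCP1-KO-dam arrays, Tff3, Mmd2 and Cyp17a1 moved closely together. Pearson's r was 0.97 for Tff3 with Mmd2, 0.93 for Tff3 with Cyp17a1 and 0.97 for Mmd2 with Cyp17a1, and Spearman's rho was 0.77, 0.83 and 0.94. These 6 arrays fall into 3 high and 3 low ones, so each r mostly restates that split. Without the 2 arrays farthest from the median of the first gene, r was 0.97, 0.98 and 0.99 over the 4 arrays left, which still hold high and low ones and so restate the split again. The pairs with Dmbt1 had lower r over the 6 arrays, 0.58 for Tff3, 0.61 for Mmd2 and 0.72 for Cyp17a1, and rho of 0.77, 0.43 and 0.37. Over the 4 arrays left by the same rule their r was 0.31, 0.83 and 0.77. Averaged over the 6 pairs, r was 0.80, and it was 0.56 without array 11.

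Within the WT-dam arrays the relations between the 4 genes differed by pair and measure. Averaged over the 6 pairs, r was -0.01 and rho 0.30. Cyp17a1 and Dmbt1 had the highest rho, 0.89, with r of 0.25. Over the 4 arrays left without arrays 1 and 6 their r was 0.62. Mmd2 and Cyp17a1 kept a positive relation, with r of 0.85 and rho of 0.71, and r was 0.22 over the 4 arrays left without arrays 2 and 6. For Mmd2 with Dmbt1 r was 0.15 and rho 0.37. Tff3 had r of -0.56 with Mmd2 and -0.83 with Cyp17a1, and rho of 0.03 and -0.09. Array 6 had the highest Tff3 and the lowest Mmd2 and Cyp17a1 of the group. Without array 4 and array 6 these r were 0.69 and 0.66. Without array 6 alone the mean over the 6 pairs was 0.55. All Tff3 signals of this group lay under the negative controls, so its order among these arrays is that of background-level values.

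**Figure D2:**
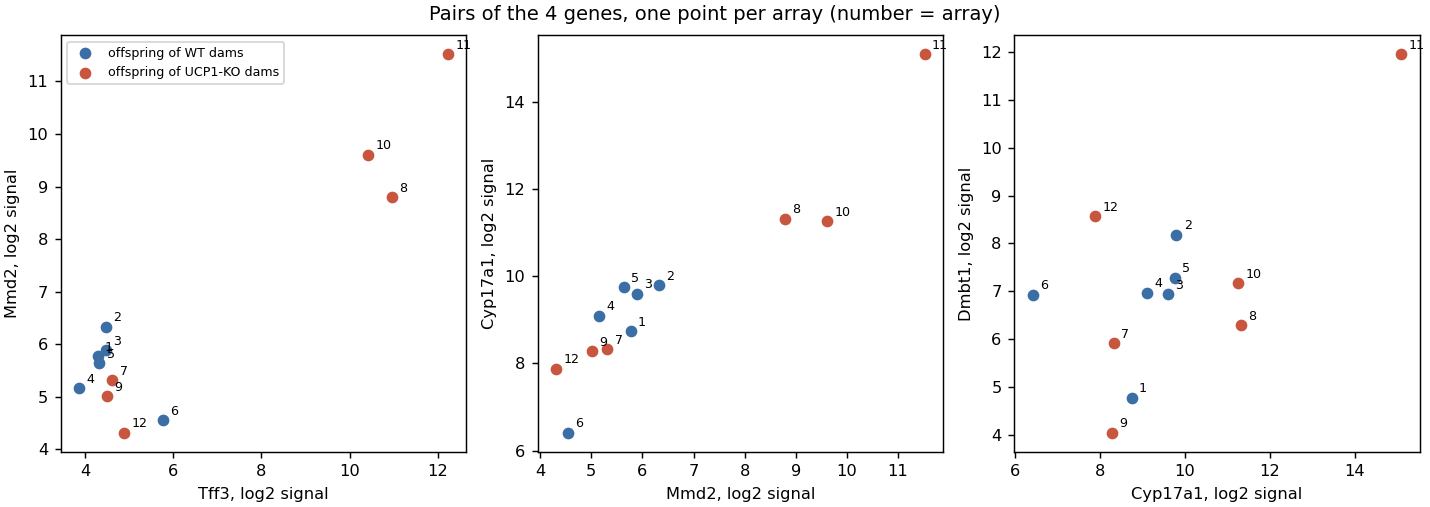
Log2 signals of Tff3 against Mmd2, Mmd2 against Cyp17a1 and Cyp17a1 against Dmbt1, 1 point per array, numbered, with WT-dam arrays in blue and UCP1-KO-dam arrays in red. Arrays 8, 10 and 11 stand apart at the upper right for the first 2 pairs, and array 11 alone does so for Cyp17a1 with Dmbt1.

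To find which other genes followed the same arrays, each gene was set against a member score. The score is the mean of the 4 genes after subtracting each group's mean and dividing by the pooled within-group SD. It read 2.00 on array 11, 0.58 on array 10 and 0.44 on array 8, then -0.79 on array 12, -0.97 on array 7 and -1.25 on array 9, and lay between -0.28 and 0.35 on the WT-dam arrays. Likeness is Pearson's r with this score over the 12 arrays after subtracting the group means, among 9802 symbols with a mean signal above the negative controls. The 12 points share their normalization, and arrays 7 to 12 carry most of the spread. On the WT-dam arrays the score includes Tff3, with 0 of 6 signals above the negative control median, and Mmd2, with 1 of 6. Its order there, and every r with it within the WT-dam arrays, is thus partly that of background-level values.

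The 8 most alike genes lay above the negative control median on every array. Aldh1b1, a mitochondrial aldehyde dehydrogenase, had r of 0.98. Acmsd, a decarboxylase of tryptophan breakdown, had 0.95, and Fh1, the fumarate hydratase of the citrate cycle, had 0.94. Agxt, which detoxifies glyoxylate with alanine, had 0.92, and the cytoskeletal gene Gas2 had 0.91. Cib3, a calcium-binding protein, and Mbl2, a mannose-binding lectin of complement, had 0.91 each, and Asns, the asparagine synthetase, had 0.90.

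Aldh1b1 was bright on all arrays, with WT-dam signals of 9.72 to 10.49 and a median of 10.25. It read 9.81, 11.07, 9.78, 11.24, 12.48 and 10.04 on UCP1-KO-dam arrays 7 to 12. The same 3 arrays, 8, 10 and 11, lay above every WT-dam array. Asns ran from 6.93 to 7.79 on WT-dam arrays, with a median of 7.38. It read 7.39, 10.06, 7.65, 9.82, 10.57 and 7.69 on arrays 7 to 12, the same 3 arrays high and the other 3 inside the WT-dam range.

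The 4 genes of lowest r were low where the members were high. Mgll, the monoacylglycerol lipase, had r of -0.98, and Cyp2d9, a cytochrome P450 more abundant in male than female mouse liver, had -0.96. Gpd1, the cytosolic glycerol phosphate dehydrogenase, had -0.95 and the efflux transporter Abcg2 had -0.94. Cyp2d9 belongs to a family of near-identical genes, whose signals the probes may not separate. Mgll ran from 9.81 to 10.17 on WT-dam arrays, and read 9.93, 8.96, 10.43, 9.19, 8.09 and 10.05 on arrays 7 to 12. Its 3 lowest values of all 12 were on arrays 8, 10 and 11.

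Leaving out any 1 array, r stayed between 0.74 and 0.99 for the 8 alike genes, with the lowest value for Cib3 without array 11, and between -0.98 and -0.90 for the 4 opposite ones. The choice of genes was less firm, since 4 to 6 of the 8 stayed among the first 8 places. The lowest number, 4, came from leaving out array 2, 9, 10 or 11. Within the 6 WT-dam arrays alone, r with the score was positive for 7 of the 8 alike genes and negative for 4 of the 4 opposite ones. These arrays were among the 12 by which the 12 genes were picked, so the signs are no separate support. The r was 0.70 for Aldh1b1, 0.78 for Mbl2, 0.03 for Asns and -0.48 for Cib3, and -0.73 for Mgll.

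In the comparison of dam genotypes, limma called 0 of these 12 genes (adjusted p = 0.122 to 0.641), and 4 of the 12 had an unadjusted p under 0.05. Over all 22206 probe sets 0.0360% were called, and 13.1% had an unadjusted p under 0.05. The 4 were Fh1 with a log2 difference of 0.43, Gas2 with 0.88, Mbl2 with 0.55 and Asns with 1.46 (limma adjusted p = 0.349, 0.122, 0.248 and 0.190). Aldh1b1 had 0.52 with a 95% interval of -0.22 to 1.26, and Mgll had -0.58 with an interval of -1.19 to 0.02. For Aldh1b1 and Mgll the SDs within the UCP1-KO-dam arrays, 1.07 and 0.86, were wider than these differences.

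**Figure D3:**
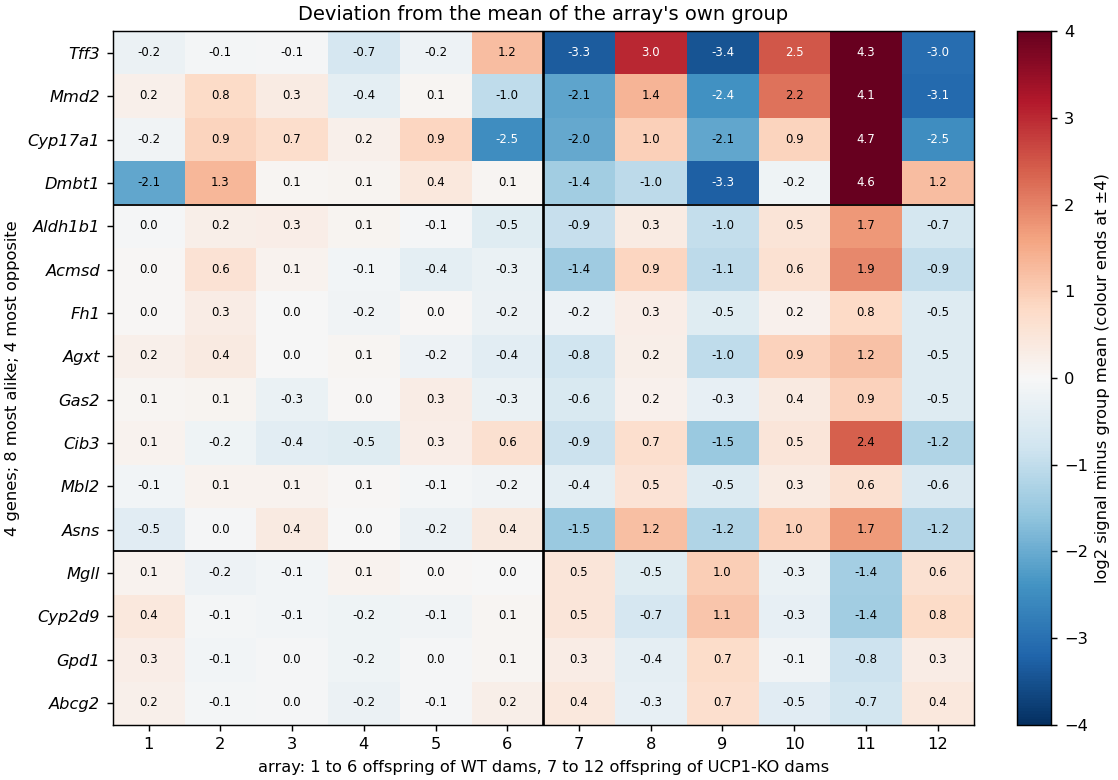
Log2 signal minus the mean of the array's own group, written in each cell and coloured by size, for the 4 genes, the 8 most alike and the 4 most opposite genes (rows) on the 12 arrays (columns). Arrays 8, 10 and 11 are positive in the upper rows and negative in the lowest 4 rows, except for Dmbt1 on arrays 8 and 10, and WT-dam arrays vary less.

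Taken 1 by 1, the 4 genes had different nearest genes. Asns was the gene most like Tff3, with r of 0.98 over the 12 group-centred arrays, followed by the reticulon gene Rtn4 and Cib3 with 0.93 each. Mmd2 was most like Aldh1b1 with 0.96, then Fh1 and Acmsd with 0.95 each. Cyp17a1 was also most like Aldh1b1, with 0.96. Next came Cyp2b10, a drug-inducible cytochrome P450 with near-identical relatives, and the histidine-degrading enzyme gene Hal, with 0.94 each. Within the 6 WT-dam arrays alone, which are part of the 12 used to pick these genes, their r with Cyp17a1 was 0.89, 0.90 and 0.87. Most of the range of Cyp17a1 there was that between array 6 and the other 5.

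Dmbt1 had neighbours of its own, the unannotated transcript AI506816 with 0.91, Lrrfip1 with 0.89 and the class I histocompatibility gene H2-T23 with 0.88. Ranked among 9805 symbols, Mmd2 took place 8 and Cyp17a1 place 92 by likeness to Tff3, and Dmbt1 place 628. By likeness to Cyp17a1, Mmd2 took place 6, Tff3 place 89 and Dmbt1 place 263. By likeness to Dmbt1, Cyp17a1 came at place 194, Mmd2 at 417 and Tff3 at 504. On this measure Mmd2 and Cyp17a1 were close neighbours, Tff3 near them and Dmbt1 remote.

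None of the measured relatives of the 4 genes was called by limma for dam genotype, where 0.0360% of all probe sets were called. Among 12 measured trefoil factors, mucins and partners other than Tff3, Tff1 and Tff2, the gastric trefoil genes, lay under the negative control median on all 12 arrays. Fcgbp, a mucus protein that binds trefoil factor 3, was near background at 6.15 ± 0.27 and 6.51 ± 0.33 (SD, n = 6 each), a log2 difference of 0.36. Of 13 other genes with scavenger receptor cysteine-rich domains, the macrophage genes Cd5l, Cd163 and Marco had differences of 0.16, -0.24 and 0.26. Of 10 other members of the progestin and adipoQ receptor family, Mmd lay under the negative controls on all arrays. The adiponectin receptor genes Adipor1 and Adipor2 had 0.19 and -0.28. These lists had 2, 2 and 0 genes with an unadjusted p under 0.05 by limma, close to or under the 13.1% over all probe sets, and median differences of 0.01, -0.04 and -0.05, against 0.03 over all symbols.

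Cyp17a1 was not accompanied by the first steps of steroid synthesis. Star, which brings cholesterol into mitochondria, and Cyp11a1, the side-chain cleavage enzyme, lay under the negative control median on all 12 arrays. Cyb5a, a partner of the Cyp17a1 lyase reaction that is abundant in liver, read 16.87 ± 0.09 and 16.78 ± 0.10. Of 23 other steroid genes, 15 had differences below 0 (median -0.08), and 2 had an unadjusted p under 0.05, beside 13.1% over all probe sets. The mean of the list had r of -0.87 with the member score within the 6 UCP1-KO-dam arrays, and a deviation from its group mean of -0.31 on array 11. Most of that deviation came from 1 gene, Hsd3b5, a steroid dehydrogenase of male mouse liver with near-identical relatives. It read 16.47, 15.08, 16.47, 15.67, 9.92 and 16.36 on arrays 7 to 12, a deviation of -5.07 on array 11. Without Hsd3b5 the list mean deviated by -0.09 on array 11 and r was -0.63. Hsd3b5 was named after its values were seen. Hsd17b2 of this list, an enzyme that inactivates estrogens and androgens, was picked with its values in view. It read 13.58, 12.69, 13.25, 12.69, 12.31 and 13.12 on arrays 7 to 12, lowest on arrays 8, 10 and 11.

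Genes zoned along the liver lobule were among the lists most closely tied to the score, either way. Periportal hepatocytes face the incoming blood and make urea and glucose, and pericentral hepatocytes carry much of the drug metabolism. The mean of 13 periportal genes, which include Aldh1b1, had r of 0.86 with the score within the UCP1-KO-dam arrays and 0.72 within the WT-dam arrays. Without Aldh1b1, itself the gene most like the score, the first was 0.73. Hal read 16.27, 16.60, 16.26, 16.53, 16.98 and 16.01 on arrays 7 to 12, and the urea cycle gene Cps1 was highest on array 11, at 18.07. Over the 12 group-centred arrays their r with the score was 0.83 and 0.82. Not every periportal gene followed the score. Cyp2f2, the brightest of the list, went the other way with r of -0.63, and Pigr had -0.32 and Ctsc -0.09. Apart from Pck1, the rest of the list had positive r. Cyp2f2, Pigr and Ctsc were named after their values were seen. The mean of 13 pericentral genes had r of -0.94 within the UCP1-KO-dam arrays and 0.46 within the WT-dam arrays. Cyp2e1, an ethanol-oxidising P450, read 18.81, 18.58, 18.82, 18.33, 18.09 and 18.86, lowest on arrays 8, 10 and 11. Oat, the ornithine aminotransferase, did the reverse of its list on array 11, at 16.76 against 15.40 to 15.91 on the other 5. The Wnt target Axin2 was near background in both groups.

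By dam genotype limma called 0 genes of both zonal lists, where 0.0360% of all probe sets were called and 13.1% had an unadjusted p under 0.05. Of the pericentral genes, 12 of 13 lay below 0 (median -0.41) and 7 had an unadjusted p under 0.05. Of the periportal genes, 11 of 13 lay above 0 (median 0.23) and 3 had an unadjusted p under 0.05. Pck1, which commits oxaloacetate to glucose synthesis, had a difference of 0.58 and no relation to the score (r = 0.00 over the 12 group-centred arrays). Over all symbols 43.4% lay below 0.

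Other lists differed in how they followed the score. Fasting and PPAR-alpha target genes had r of -0.82 within the UCP1-KO-dam arrays and 0.55 within the WT-dam arrays. The fatty acid hydroxylase genes Cyp4a14 and Cyp4a10 had differences of 0.52 and -0.64, and Pdk4, a brake on glucose oxidation, -0.13. Gluconeogenic and hormone-responsive genes had r of 0.71 and 0.78, in the same order. There G6pc, the glucose-6-phosphatase of liver, had -0.46, and the coactivator gene Ppargc1a 0.15. For ChREBP and lipogenic genes r was -0.23 and -0.45, although Pklr, the liver pyruvate kinase, was lowest on arrays 8, 10 and 11 (11.26, 10.77 and 10.98). Pklr had a difference of -2.05 between the dam genotypes (limma adjusted p = 0.134). Mlxipl, which encodes ChREBP, had -1.04, and Fasn, the fatty acid synthase, -0.54.

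Clock genes had r of -0.69 within the UCP1-KO-dam arrays and 0.12 within the WT-dam arrays, and Arntl, Dbp and Nr1d1 had differences of -0.43, 0.60 and 0.02. Endoplasmic reticulum stress genes had 0.13 and -0.53. Within that list Asns was high on arrays 8, 10 and 11, as given above. Atf4, a regulator of Asns, was lowest on array 11 (11.89) and had a difference of -0.42. The chaperone gene Hspa5 had 0.25 and the stress factor Ddit3 0.35. Acute phase genes had r of 0.59 and 0.28, with differences of 0.06 for Saa1, 0.23 for Saa2 and -0.13 for Lcn2. Of the 20 measured, 2 had a higher and 5 a lower mean at an unadjusted p under 0.05 by limma. Over all probe sets 13.1% had such a p. Bile acid genes had -0.64 and 0.64, with -0.10 for the synthesis enzyme Cyp7a1, -0.73 for Cyp8b1 and 0.31 for the repressor Nr0b2.

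Some of these relations to the score rested on 1 gene of a list. With each gene left out in turn, r within the UCP1-KO-dam arrays stayed between -0.96 and -0.92 for the pericentral list, 0.73 and 0.91 for the periportal, -0.85 and -0.75 for the fasting and -0.76 and -0.63 for the clock list. It ranged from 0.10 (without Igfbp1) to 0.78 for the gluconeogenic list and from -0.86 to -0.27 (without Cyp7b1) for the bile acid list. For the acute phase list it ran from 0.41 to 0.68. The sign changed for the ChREBP list without Pklr (0.13), for the endoplasmic reticulum stress list without Asns (-0.30) and for the progestin and adipoQ receptor list, from -0.68 to 0.28 without Paqr7. All genes were read on the same arrays, so leaving out genes does not show the weight of 1 array. Array 11 had the highest score, 2.00, and r of the lists without it was not computed. From its group mean, the pericentral list deviated by 0.34, -0.35, 0.38, -0.17, -0.44 and 0.25 on arrays 7 to 12. The periportal list deviated by -0.25, -0.03, -0.01, 0.12, 0.39 and -0.23.

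**Figure D4:**
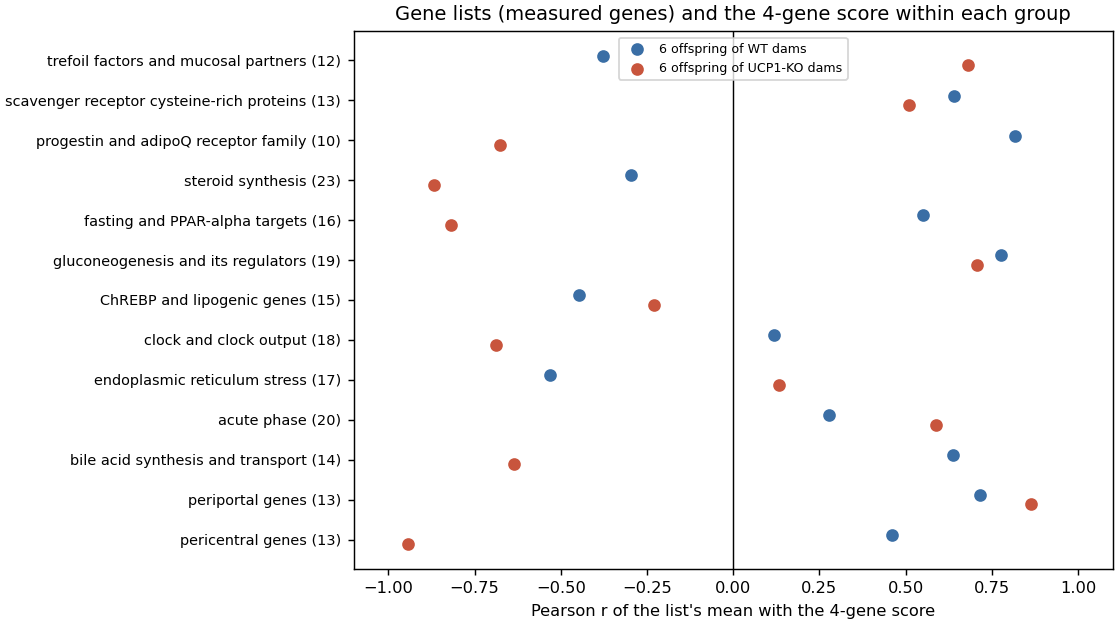
Pearson's r (horizontal axis) between the mean of each of 13 gene lists and the 4-gene score, within 6 WT-dam arrays (blue) and 6 UCP1-KO-dam arrays (red), with the number of measured genes in brackets. The periportal list lies at 0.72 and 0.86, and the pericentral list at 0.46 and -0.94. The score spans -0.28 to 0.35 on WT-dam arrays, partly from background-level signals, and -1.25 to 2.00 on UCP1-KO-dam arrays.

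None of the 202 different genes measured in the 13 lists was called by limma for dam genotype (adjusted p = 0.0596 to 0.996). Over all probe sets only 0.0360% were called. At an unadjusted p under 0.05 there were 40 of them, 13 with a higher and 27 with a lower mean on UCP1-KO-dam arrays. This is 19.8%, beside the 13.1% over all probe sets. The lowest adjusted p was that of Lrg1 in the acute phase list, with a difference of -1.02 (limma adjusted p = 0.0596). Gcgr of the gluconeogenic, Npas2 of the clock and Lgals3bp of the scavenger receptor list had -0.68, -1.60 and -1.04 (limma adjusted p = 0.0639, 0.118 and 0.0891). These genes were named after their values were seen.

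Tff3 and Dmbt1 are also markers of duct and gut epithelium, and Cyp17a1 of steroid-making glands, so the markers of those cells were read on the same arrays. Fewer cells of a type and less RNA per cell cannot be told apart in such whole-tissue samples. Of 10 bile duct markers, Krt19, Epcam, Cftr, Tspan8 and Cd24a lay under the negative control median on all 12 arrays. The summed signal of the 10 was 9.66 to 10.69 (log2) on WT-dam arrays and 9.83 to 10.16 on UCP1-KO-dam arrays, with 10.06, 10.16 and 10.06 on arrays 8, 10 and 11. The brightest, Sox9, read 9.14 ± 0.63 and 8.98 ± 0.45 (SD, n = 6 each) and makes up much of this sum. With each gene weighted alike, the mean of the 10 lay 0.37 log2 above its group mean on array 11, and between -0.17 and 0.06 from it on the other 5 UCP1-KO-dam arrays. On arrays 8 and 10, where the score was also high (0.44 and 0.58), this mean deviated by -0.12 and -0.17. Its r with the score was 0.53 within the UCP1-KO-dam arrays and 0.71 within the WT-dam arrays. The positive sign of the first r drew on array 11. The gene farthest from its group mean on array 11 was Cftr (1.15), one of those under the negative controls, and without it the first r was 0.33.

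Of 12 intestinal markers, 7 lay under the negative controls on all arrays, among them Cdx2, Muc2 and Sis. The summed signal of the 12, 14.29 to 14.59 and 14.18 to 14.78 in the same order of groups, was mostly that of Mttp, which hepatocytes make too (13.97 ± 0.15 and 14.06 ± 0.31). Of 9 steroidogenic markers, 6 lay under the negative controls on all arrays, Star, Cyp11a1, Cyp11b1, Nr5a1, Mc2r and Hsd3b1. Scarb1, the lipoprotein receptor shared with liver, was the brightest (13.60 ± 0.41 and 13.54 ± 0.46). Of 11 pancreatic acinar markers, 8 lay under them on all arrays. The summed signal of this list was 8.67 to 8.95 on WT-dam arrays and 8.96 to 9.20 on UCP1-KO-dam arrays, with 8.99, 9.15 and 9.09 on arrays 8, 10 and 11. The group ranges nearly met, at 8.95 and 8.96, and how often such ranges part over all probe sets was not counted. Limma called 0 of the 11 genes for dam genotype, beside 0.0360% of all probe sets. Arrays 8, 10 and 11 lay among the other arrays of their group. Amy2a5 was the brightest gene of the acinar list (6.91 ± 0.46 and 7.53 ± 0.25).

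The summed signals of other liver cell markers overlapped between the groups. The summed signals of Kupffer cell markers were 13.40 to 14.72 and 13.32 to 14.18, with Cd5l the brightest (11.45 ± 0.52 and 11.61 ± 0.56), and 0 of 11 lay under the negative controls throughout. Endothelial markers summed to 14.93 to 15.25 and 14.80 to 15.46, led by Fcgr2b (13.18 ± 0.22 and 13.02 ± 0.44). Stellate cell markers summed to 14.50 to 15.47 and 14.63 to 15.34, led by Dcn (14.64 ± 0.36 and 14.74 ± 0.25). Lymphocyte markers summed to 9.71 to 10.20 and 9.64 to 10.07, led by Ptprc (8.56 ± 0.36 and 8.75 ± 0.23). Within the UCP1-KO-dam arrays the marker lists differed in how they followed the score. The mean of the list, each gene weighted alike, had r of 0.77 with it for intestinal, 0.75 for stellate, 0.45 for Kupffer, 0.41 for acinar, 0.39 for steroidogenic and 0.05 for lymphocyte markers. For endothelial markers r was -0.78 and for hepatocyte markers -0.68. Within the WT-dam arrays these were, in the same order, -0.66, 0.38, 0.63, 0.32, -0.47, 0.40, 0.15 and -0.05. On arrays 7 to 12 the intestinal mean lay -0.09 to 0.08 log2 from its group mean, and the hepatocyte mean -0.08 to 0.10. The endothelial mean lay -0.15 to 0.21 from it. The stellate mean lay 0.28 above its group mean on array 11 and -0.10 to 0.01 from it on the others. The positive stellate r thus drew on array 11. The Kupffer mean deviated by 0.21 on array 8, -0.36 on array 10 and 0.31 on array 11. Most of the intestinal genes, as given above, lay under the negative controls on all arrays. With each gene left out in turn, the hepatocyte r within the UCP1-KO-dam arrays ran from -0.91 (without Tat) to -0.36 (without Cyp2e1). Cyp2e1 is also in the pericentral list. The part of any of these marker lists in the signals of the 4 genes was not tested. The negative control medians of arrays 8, 10 and 11, at 6.25, 6.36 and 6.15, compared with 6.27, 5.96 and 6.27 on arrays 7, 9 and 12.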

How the data were processed

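The deposited values are log2 signals per probe set and array, made by the authors with the Transcriptome Analysis Console and RMA. Both are named per the submitters' processing notes. Versions and genome build are not given in the sources used here. RMA makes array distributions alike and compresses differences between dim probe sets. The 6640 control rows were left out, and the other 22206 probe sets were tested unfiltered. Of these, 19572 had 1 symbol in the platform annotation, 0 had several and 2634 had none. All 19572 Entrez identifiers matched the RefSeq table (GRCm38.p6), with 0 symbols differing.

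Dam genotype was the only term in limma 3.58.1 (R 4.3.3, lmFit and eBayes, two-sided), with Benjamini-Hochberg adjustment over 22206 probe sets. An adjusted p under 0.05 was called. No pairs of arrays were identical. The number of arrays limits precision. For a symbol with several probe sets the brightest was used. The fit and the likeness ranking were tested on simulated data. Correlations and likeness were computed in Python 3.11.15.

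The 4 genes, the lists and the tests were chosen with earlier results of these data known. Named were the 4 genes, the first 3 measured genes of each list, the 8 most and 4 least alike genes, the 3 nearest of each of the 4 genes and the brightest marker of each cell type. Alternatives were quantile normalization, median centring, the negative control median as a covariate, a robust variance trend, a filter on dim probe sets, 1 value per symbol and leaving out each array.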

Additional observations from a re-analysis of the deposited data

Results flagged for a closer look

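Among 108 groups of 6 arrays looked at, 8 held an array far from the other 5 by Dixon's ratio, the gap to the nearest array over the range of the group. Chance flags about 5% of groups. Tff3 was highest on WT-dam array 6, at 5.77 against 3.87 to 4.48 (ratio 0.680), where all 6 signals lay under the negative controls. Cyp17a1 was lowest on the same array, at 6.41 against 8.74 to 9.80 (ratio 0.689). Oat was lowest there too, at 15.46 against 15.98 to 16.25 (ratio 0.659), and was highest on UCP1-KO-dam array 11, at 16.76 against 15.40 to 15.91 (ratio 0.629). Dmbt1 was lowest on WT-dam array 1, at 4.78 against 6.92 to 8.18 (ratio 0.630). Marco was highest on WT-dam array 2, at 9.10 against 6.54 to 6.72 (ratio 0.928). G6pc was lowest on UCP1-KO-dam array 12, at 14.41 against 15.42 to 15.89 (ratio 0.686). Cyp8b1 was lowest on UCP1-KO-dam array 9, at 11.23 against 12.96 to 13.84 (ratio 0.663). Tff3, Mmd2 and Cyp17a1 on arrays 8, 10 and 11 met no such limit, since 3 arrays of 6 shared the high values.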

How the results depend on the processing

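The count of called probe sets, 8, was 2 with the negative control median as a covariate, 22 with a robust variance trend and 30 without dim probe sets, and 1 to 112 when single arrays were left out (1 without array 8, 112 without array 2). The member differences moved by less than the within-group SD under every alternative run. This is a weak limit, since that SD, 2.08 to 2.61, is widened by the high arrays themselves. Leaving out 1 array of a group could not move a difference beyond it. Without array 11 the Dmbt1 difference still changed sign, to -0.45, and that of Cyp17a1 fell to 0.51. Quantile normalization, median centring and the covariate gave 3.37 to 3.76 for Tff3, 1.84 to 1.94 for Mmd2, 1.43 to 1.52 for Cyp17a1 and 0.45 to 0.87 for Dmbt1. Leaving out single arrays gave 2.54 to 4.09, 1.05 to 2.50, 0.51 to 1.96 and -0.45 to 1.13. The mean r over the 6 pairs was -0.13 to 0.55 without single WT-dam arrays and 0.56 to 0.90 without single UCP1-KO-dam arrays. By Spearman's rho it was 0.30 and 0.69. Of the 8 most alike genes, 4 to 6 stayed among the first 8. Of 202 list genes, limma called 0 by quantile normalization (37 at an unadjusted p under 0.05) and 0 with the covariate (29). The 76 values of 38 named list genes under these 2 settings moved by less than the within-group SD. Leaving out each gene of a list in turn, added after the data were seen, changed the sign of r with the score within the UCP1-KO-dam arrays for 3 of 13 pathway lists and for 2 of 9 marker lists (steroidogenic and lymphocyte). No paired analysis was possible because the groups share no replicate numbers. Tff3 and Mmd2 were not well above background on most arrays, so their order there is not resolved.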
